A study of Mus musculus with 8 samples.

Results

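Mouse microRNAs (miRNAs) carry numbers in the order in which they were entered in the public registry, so a high number marks a sequence found late, mostly by deep sequencing of small RNA. The 141 described here are the mouse miRNAs from miR-1000 to miR-6895, and from miR-7120 upward, that were detected in the culture medium of mouse muscle cells on at least 2 of 8 arrays. Of the 1881 mouse miRNAs on the array, 652 lie in these number ranges, 155 of those were detected on at least 2 arrays, and 14 of the 155 were left out by name. The members were thus chosen by the detected flags of all 8 arrays, and which miRNAs to leave out was decided with results of these arrays known. Detection by group is for that reason given as a description, without a test.

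The medium came from primary myocytes of the hind limb muscle of newborn mice (1 to 3 days old, labelled male). All groups carried a human SOD1 transgene, as B6SJL(Tg-SOD1)2Gur/J with the wild-type gene (WT) or B6SJL(Tg-SOD1*G93A)1Gur/J with the G93A mutation, a mouse model of amyotrophic lateral sclerosis. Mice without a transgene were not analysed here. Cells were grown as transwell co-cultures, 2.5 in the bottom chamber and 1.5 in the insert (in 1e5 cells), which share medium through pores of 0.4 µm. Written as bottom chamber/insert, the groups were WT/WT with 2 samples, G93A/WT with 3 and G93A/G93A with 3, without treatment and medium taken at 2 days in vitro. The labels call the samples biological replicates without naming a litter or culture day, so p-values measure the spread between these samples. The comparisons ask which miRNAs differ in medium when mutant cells are present in the bottom chamber or in both chambers.

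A miRNA is cut from a hairpin precursor, and its bases 2 to 8, the seed, pair with target messenger RNAs. Muscle cells release miRNAs into medium in vesicles and bound to proteins. Many late-numbered miRNAs lie within other genes or repeats and are known mainly from sequencing reads, with few studied targets, so the background that can be given for each is mostly its sequence and its place in the genome. In medium, fewer cells of a type and less RNA per cell cannot be told apart.

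RefSeq (GRCm38.p6) gave a mature sequence and position for 116 of the 141. The following 11 are those with a sequence among the 13 that passed the test in at least 1 comparison (limma, adjusted p below 0.05), shown 5′ to 3′ with the seed in capitals.

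miR-3059-3p: cCUCUAGGgaagagaagguugg
miR-3067-3p: cCAAGCGGcugcccugggagagg
miR-3070-2-3p: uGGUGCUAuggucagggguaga
miR-3095-3p: uGGACACUggagagagagcuuuu
miR-3097-5p: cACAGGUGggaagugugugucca
miR-3547-5p: gUGGGAAGagggguggggcccggga
miR-3963: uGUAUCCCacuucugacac
miR-5110: gGAGGAGGuagagggugguggaauu
miR-6391: uGAGGCACgggaggacaaugu
miR-6418-5p: uCAGGGGAagggaagagaugc
miR-8093: uUGGGGAGcagagcaugagug

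These 11 have 11 different seeds. On GRCm38.p6, miR-3095-3p lies at chr4:58441023-58441045 (minus strand) within the span of Lpar1, a lysophosphatidic acid receptor, and miR-3059-3p at chr10:101772740-101772761 (plus) within Mgat4c. Within Smoc1 lies miR-3067-3p, at chr12:81166201-81166223 (plus), within Baiap3 miR-3547-5p, at chr17:25245614-25245638 (minus), and within Gnb2, a G protein beta subunit, miR-6418-5p, at chr5:137529551-137529571 (minus). The miR-3097-5p stretch is chr5:35021050-35021072 (plus) within Rgs12, that of miR-6391 chr14:118592376-118592396 (minus) within Abcc4, a drug and nucleotide exporter, and that of miR-8093 chr2:32687706-32687726 (minus) within Fpgs. Bcas3 spans miR-5110 at chr11:85760675-85760699 (minus), and no listed gene spans miR-3963 at chr3:151023839-151023857 (minus). Across the 116, 97 lay within the span of a gene and 86 (74.1%) within a protein-coding one, whether in exon or intron not being given by the table. Spans were matched by position alone, without strand, so a gene named here may lie on the opposite strand and need not be the host gene.

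Levels are log2 of the array signal after scaling each array to an equal 75th percentile, and 0.60 is the floor at which an undetected miRNA is set. Of the 141, 109 were detected on all 8 arrays, and their mean levels ran from 1.81 to 10.77 with a median of 5.64. The 227 miRNAs numbered below 1000 with the same detection had a median of 4.92, and the 76 from miR-6896 to miR-7119 one of 5.06. The late-numbered members made up 10.1% to 12.4% of an array's summed signal. Arrays of 1 group correlated at r = 0.983 to 0.997 over the 109 (7 pairs), and arrays of different groups at 0.973 to 0.991 (21 pairs).

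The brightest was miR-3473b, with levels of 10.95 and 10.59 in WT/WT, 11.01, 10.91 and 10.94 in G93A/WT and 10.44, 10.69 and 10.66 in G93A/G93A. The next were miR-3095-3p (mean over 8 arrays 10.35), miR-3547-5p (9.66), miR-1897-5p (9.65), miR-5128 (9.54), miR-6538 (9.35), miR-2137 (9.34) and miR-3473g (9.32). Among all 538 tested miRNAs, miR-3473b ranked 12 and miR-3473g 32. Of the 8, miR-3095-3p and miR-3547-5p passed the test in a comparison.

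By number, the miR-1000s held 23 members of 121 on the array (21.5% detected on at least 2 arrays, with those left out by name), with a median level of 4.41 over the 19 detected throughout. The miR-2000s held 1 member, miR-2137. There were 40 members of 154 (27.3%) in the miR-3000s, at a median of 6.58, and 17 of 68 (27.9%) in the miR-4000s and miR-5000s together, at 6.12. The miR-6000s up to miR-6895 had 18 members of 112 (18.8%) and a low median again, 4.10. From miR-7120 upward there were 42 of 192 (23.4%) at 5.45, of which miR-7235-5p was the brightest at 8.19. For comparison, 35.4% of the 819 miRNAs numbered below 1000 were detected on at least 2 arrays, and 22.7% of the 410 from miR-6896 to miR-7119.

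**Figure D1:**
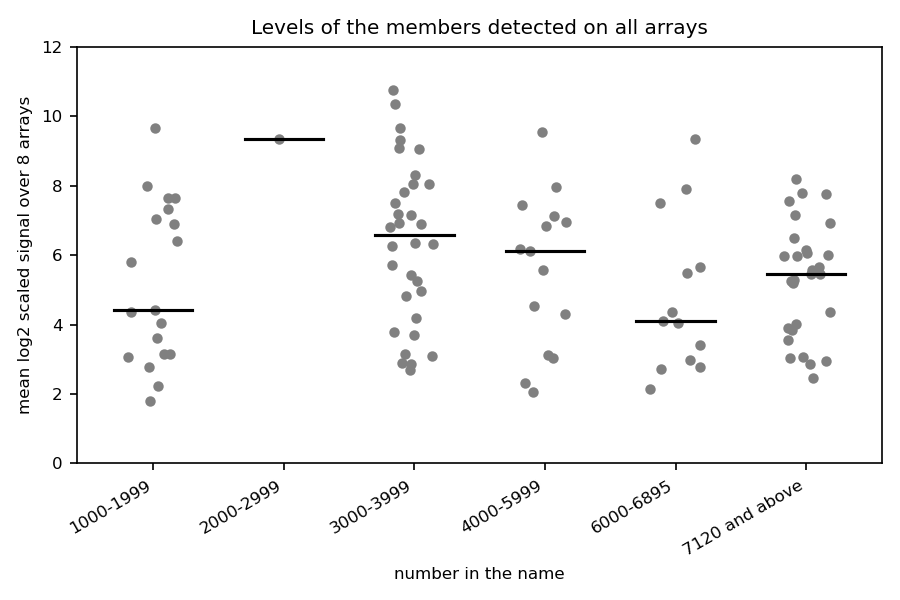
Mean log2 scaled signal over the 8 arrays (vertical axis) of each of the 109 members detected on all arrays, by the number in its name (horizontal axis); points are miRNAs and bars are medians. The miR-3000s have the highest median among the ranges with more than 1 member, 6.58, and the miR-6000s the lowest, 4.10, with wide overlap between ranges.

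Detection differed by array. The members detected numbered 113 and 113 in WT/WT, 125, 138 and 132 in G93A/WT and 124, 112 and 120 in G93A/G93A. All mouse miRNAs detected numbered 450 and 461, then 497, 563 and 520, then 483, 451 and 476. G93A/WT was thus also the group with the most detections over the whole array, and its lead is not particular to the members. Over the 32 members not detected on all arrays, the numbers were 4 and 4, then 16, 29 and 23, then 15, 3 and 11. Array brightness moved with this: the factor that scales each array, low for a bright one, was 1.44 and 1.13 in WT/WT, 0.933, 0.593 and 0.755 in G93A/WT (the brightest) and 1.16, 1.31 and 0.973 in G93A/G93A. The part of brightness in detection was not tested. No member was undetected throughout G93A/WT, whereas WT/WT had 27 such members and G93A/G93A had 13. WT/WT has only 2 arrays on which a member could be seen, against 3 in each other group. The rule used these same flags, and the counts over all tested miRNAs are not given, so these numbers only describe the members.

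**Figure D2:**
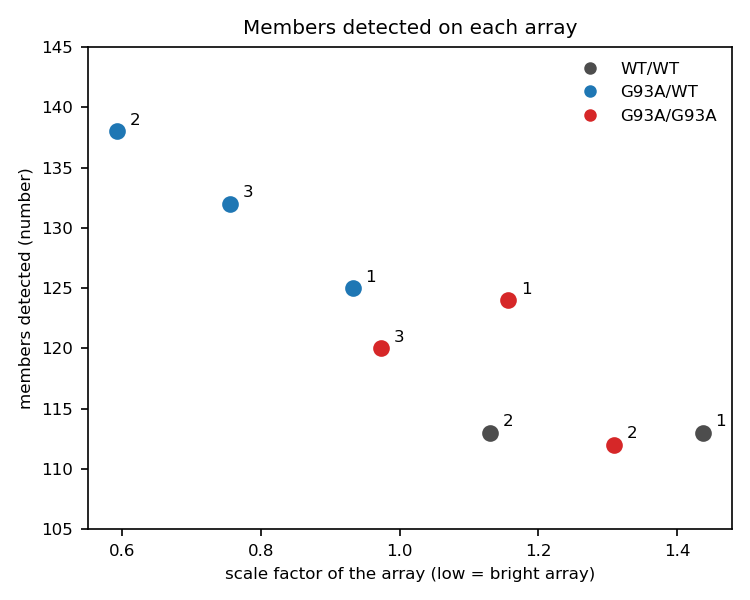
Number of the 141 members detected on each array (vertical axis) against the scale factor of the array (horizontal axis); each point is 1 array, numbered by replicate and coloured by group. The 3 G93A/WT arrays have the lowest scale factors, 0.593 to 0.933, and the most members detected, 125 to 138. They also have the most detected over all mouse miRNAs, 497 to 563.

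The 13 members just inside the rule, detected on exactly 2 arrays, had 23 of their detections in G93A/WT, 3 in G93A/G93A and 0 in WT/WT, and their highest levels lay between 1.39 and 2.59. The 15 miRNAs of these number ranges just outside it, detected on 1 array, had 13 detections in G93A/WT and 2 in G93A/G93A, at 0.64 to 2.40. Another 482 were detected on no array.

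Members detected on all arrays of 1 group and none of another were few. miR-3100-5p, miR-6391, miR-6399 and miR-8093 were detected on all G93A/WT and no WT/WT arrays, miR-3085-5p, miR-6391 and miR-8093 on all G93A/WT and no G93A/G93A arrays, and miR-3097-5p on all G93A/G93A and no WT/WT arrays. No member was detected on all WT/WT arrays and on none of another group. The levels of miR-6399 were 2.29, 2.55 and 2.41 in G93A/WT, at the floor in WT/WT and 1.42, 0.60 and 3.01 in G93A/G93A. Those of miR-3100-5p were 1.55, 2.35 and 2.39 in G93A/WT, at the floor in WT/WT and 0.60, 0.60 and 1.86 in G93A/G93A. Neither passed the test between G93A/WT and WT/WT (adjusted p = 0.129 and 0.0950, at least 3.08-fold and 2.48-fold higher). These lie close to the detection limit, where the rule itself kept only miRNAs that were seen in some group.

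The arrays shared 1 slide of 2 rows. All G93A/WT arrays were in the first row with WT/WT 1, and all G93A/G93A arrays in the second with WT/WT 2, so slide row and group cannot be told apart between G93A/G93A and G93A/WT. Marker miRNAs of other cell types also moved with the groups: the epithelial list (5 of 7 detected on at least 2 arrays, with miR-200a-3p and miR-141-3p undetected) summed to 138 to 166 scaled signal units in WT/WT, 61.2 to 85.0 in G93A/WT and 0 to 5.36 in G93A/G93A. The fibroblast list (4 of 5, miR-145a-5p undetected) summed to 475 to 517, 415 to 553 and 343 to 430. The leukocyte list had 1 of 3 (miR-142a-3p and miR-150-5p undetected), at 99.3 to 107, 133 to 146 and 131 to 159. The muscle list (4 of 6, miR-208b-3p undetected) overlapped between groups at 4522 to 5194, 4341 to 5258 and 4094 to 5063. The erythroid and serum list (3 of 4, miR-144-3p undetected) summed to 1163 to 1216, 1381 to 1561 and 1061 to 1511, the endothelial miR-126a-3p to 109 to 119, 87.4 to 113 and 93.1 to 101, and both neural miRNAs were undetected. Such sums hide members that went different ways between WT/WT and G93A/WT. miR-451a rose (9.84 and 9.72, then 10.13, 10.22 and 10.33), while miR-486a-5p fell (7.38 and 7.40, then 7.07, 7.17 and 6.97). All G93A/WT arrays were above WT/WT for fibroblast miR-143-3p and below for fibroblast miR-199a-5p. They were above for muscle miR-133a-3p and miR-133b-3p, while miR-1a-3p and miR-206-3p overlapped. In the epithelial list the brightest, miR-205-5p, read 6.99 and 6.77 in WT/WT and 5.54, 5.96 and 5.69 in G93A/WT. All G93A/WT arrays were below WT/WT for it and for miR-203-3p, miR-200c-3p and miR-429-3p. miR-200b-3p overlapped (2.95 and 1.91, then 2.14, 2.39 and 2.40). The part of these cell types in the differences between groups was not tested.

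G93A/G93A against G93A/WT asks what differs when the insert also holds mutant cells. Here 11 of the 141 members passed (7.80%), 7 higher and 4 lower in G93A/G93A, beside 10.6% of all 538 tested miRNAs (5.39% higher, 5.20% lower). The split was 9 higher and 1 lower with the authors' values, 2 and 6 with early and late numbers each centred, and 0 and 24 without scaling. The 7 that were higher were miR-3095-3p, miR-3547-5p, miR-6418-5p, miR-3059-3p, miR-3067-3p, miR-5110 and miR-8108, by 0.42 to 0.79 on the log2 scale. The 4 that were lower were miR-3963, miR-3075-5p, miR-6391 and miR-8093. Of these, miR-6391 and miR-8093 met the detection rule through G93A/WT alone. Among the 14 miRNAs left out by name 4 passed in this comparison, 3 of them higher. The lower share among the members than among all tested is thus set in part by which miRNAs were left out. At an unadjusted p below 0.05 there were 36 members and 173 of all tested. Without G93A/G93A 3 the count was 23, and without G93A/WT 2 or without G93A/G93A 2 it was 6.

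The brightest of these was miR-3095-3p, at 9.87, 9.98 and 10.05 in G93A/WT, 10.90, 10.84 and 10.54 in G93A/G93A and 10.22 and 10.41 in WT/WT. The G93A/G93A arrays lay above every other array, and the difference from G93A/WT was 0.79 ± 0.13 (SE; adjusted p = 0.00774, limma). For miR-3547-5p the levels were 9.51, 9.28 and 9.28 in G93A/WT, 10.02, 10.12 and 9.74 in G93A/G93A and 9.77 and 9.58 in WT/WT. Its G93A/G93A arrays lay above G93A/WT but overlapped WT/WT, and the difference from G93A/WT was 0.60 ± 0.13 (adjusted p = 0.0308).

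miR-3059-3p had the lowest adjusted p among the members. It read 6.50, 6.55 and 6.47 in G93A/WT, 7.16, 7.11 and 7.13 in G93A/G93A and 6.84 and 6.78 in WT/WT, so the 3 groups did not overlap and WT/WT lay between the others. The difference was 0.63 ± 0.08 (adjusted p = 0.00314). miR-6418-5p read 7.16, 7.20 and 7.19 in G93A/WT against 7.85, 7.79 and 7.62 in G93A/G93A, with WT/WT at 7.64 and 7.66 within the G93A/G93A range (0.57 ± 0.09, adjusted p = 0.00799). miR-8108 was alike at a lower level, 3.19 on each G93A/WT array, 3.94, 3.71 and 3.69 in G93A/G93A and 3.63 and 3.80 in WT/WT (0.59 ± 0.10, adjusted p = 0.0120). For these last 3, and also for miR-3095-3p and miR-3547-5p, the G93A/WT arrays were below all arrays of both other groups.

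Smaller differences came from miR-3067-3p and miR-5110, whose G93A/G93A arrays were above all others. miR-3067-3p read 5.31, 5.32 and 5.18 in G93A/WT, 5.67, 5.78 and 5.63 in G93A/G93A and 5.33 and 5.32 in WT/WT (0.42 ± 0.09, adjusted p = 0.0267). miR-5110 read 4.04, 4.17 and 4.16, then 4.57, 4.60 and 4.46, with 4.13 and 4.22 in WT/WT (0.42 ± 0.09, adjusted p = 0.0275). Centring the early and late numbers separately removed the calls of miR-3067-3p, miR-3547-5p, miR-5110, miR-6418-5p and miR-8108. Leaving out array scaling lowers all 7 higher members by one common amount, since it multiplies each whole array, and none of the 7 passed then: the 5 just named stood at -0.18 to -0.0026, miR-3059-3p at 0.022 (adjusted p = 0.945) and miR-3095-3p at 0.19 (adjusted p = 0.562).

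Among the lower members, miR-3963 was bright throughout: 9.14, 9.27 and 9.32 in G93A/WT, 8.55, 8.53 and 8.88 in G93A/G93A and 9.58 and 9.38 in WT/WT. Every G93A/G93A array was below every other array, and WT/WT was the highest group (-0.59 ± 0.13 against G93A/WT, adjusted p = 0.0285). The remaining members were dim. miR-3075-5p read 3.50, 3.30 and 3.28 in G93A/WT, 1.82, 0.60 and 2.15 in G93A/G93A, where 1 array was at the floor, and 2.37 and 2.84 in WT/WT (-1.84 ± 0.38, adjusted p = 0.0250). miR-6391 was at 1.93, 1.74 and 1.25 in G93A/WT and at the floor on the other 5 arrays (at least 1.88-fold lower in G93A/G93A, adjusted p = 0.00823). miR-8093 was at 1.67, 2.55 and 1.38 in G93A/WT and likewise at the floor elsewhere (at least 2.21-fold lower, adjusted p = 0.0285). With the floor at 2 times these differences were -0.15 and -0.34 on the log2 scale, and with quantile normalization -0.33 and -0.55. Both calls were lost under each of these settings and with the authors' values (adjusted p = 0.271 to 0.597). Both miRNAs met the detection rule through G93A/WT alone, so their p-values are no support for G93A/WT being higher. Both were seen on the brightest arrays alone, arrays at the floor add no spread, and such an "at least" compares with the lowest signal detected on each array and is approximate.

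Blocking on slide row left 0 of these 11 past the threshold (limma; 10 members and 73 of all tested at an unadjusted p below 0.05). All 11 kept their sign there, the median size of the differences was 0.60 before and 0.60 with the block, and the median SE went from 0.127 to 0.262. In that fit the groups are linked only through 1 WT/WT array per row.

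**Figure D3:**
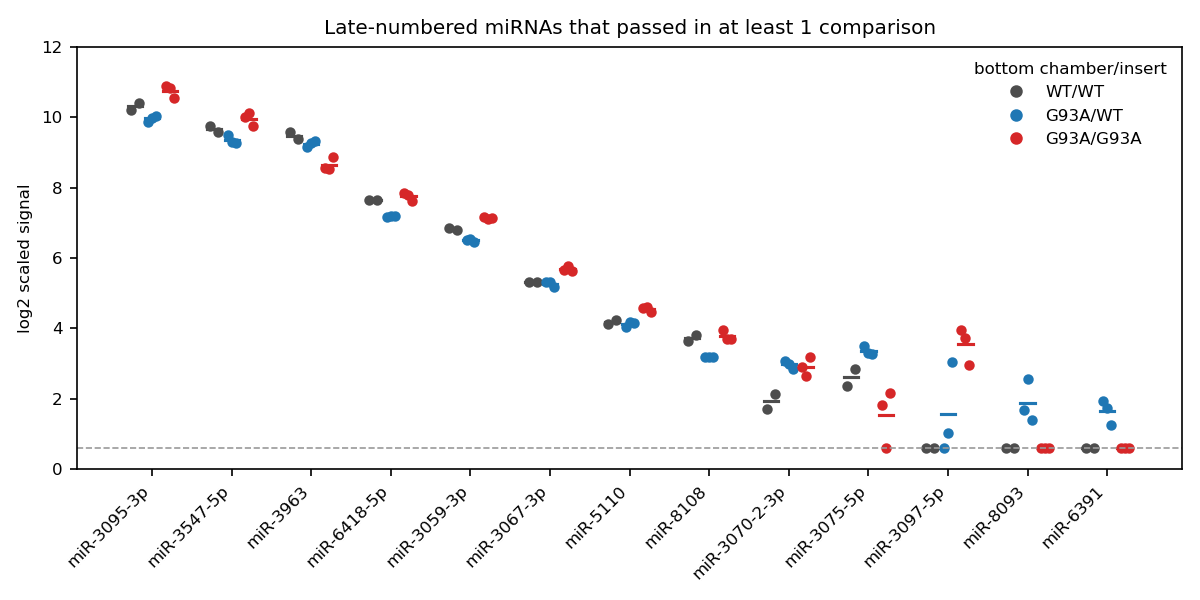
Log2 scaled signal (vertical axis) of the 13 members that passed in at least 1 comparison, each point 1 array, coloured by group, with group means as bars and the floor of 0.60 as a dashed line. The 8 members at the left are those detected on all arrays that passed between G93A/G93A and G93A/WT; miR-6391 and miR-8093, at the right, are above the floor in G93A/WT alone.

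G93A/G93A against WT/WT compares medium of mutant with medium of wild-type cells. In it 3 of the 141 members passed (2.13%), 2 higher (miR-3070-2-3p and miR-3097-5p) and 1 lower (miR-3963), beside 8.55% of all tested miRNAs (3.72% higher, 4.83% lower). This split turned with the scaling: 0 higher and 3 lower when arrays were scaled on the median, 5 and 0 with quantile normalization, 2 and 0 without scaling, 7 and 1 with the authors' values, and 0 and 1 with early and late numbers each centred. Scaling on the median and quantile normalization each shared 1 of the 3 calls. Of the 14 left out by name 4 passed here, all higher, so the low share among the members is set in part by which miRNAs were left out. At an unadjusted p below 0.05 there were 29 members and 143 of all tested. Leaving out WT/WT 1 gave a count of 0, leaving out G93A/WT 1, G93A/WT 2 or G93A/G93A 2 a count of 1, and leaving out G93A/G93A 3 a count of 6.

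miR-3070-2-3p comes from the imprinted Dlk1-Dio3 region, where it lies at chr12:109588648-109588669 (plus strand) within the span of Rtl1, whose strand was not matched. It read 1.69 and 2.14 in WT/WT, 3.08, 2.99 and 2.85 in G93A/WT and 2.90, 2.63 and 3.19 in G93A/G93A. Both groups with mutant cells lay above WT/WT and overlapped each other. The difference of G93A/G93A from WT/WT was 0.99 ± 0.20 (adjusted p = 0.0294), and it missed the threshold with 6 of the 8 arrays left out in turn (highest adjusted p 0.176). Of 21 alternatives, 8 kept this call. It was lost with scaling on the median, without scaling and with early and late numbers each centred, among others.

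miR-3097-5p was at the floor in WT/WT, at 0.60, 1.03 and 3.04 in G93A/WT and at 3.96, 3.71 and 2.95 in G93A/G93A. It was at least 6.73-fold higher in G93A/G93A than in WT/WT (adjusted p = 0.0461), and G93A/WT overlapped both. As miR-3097-5p met the detection rule only through the groups with mutant cells, its p-value is no support for G93A/G93A being higher. The WT/WT arrays at the floor also add no spread. Of 20 alternative settings, 2 kept this call, and the log2 difference ran from 1.94 to 5.32. The call was lost with the floor at 2 times and at 0.5 times. miR-3963, whose array values are given with the comparison to G93A/WT, had a G93A/G93A level that differed from WT/WT by -0.83 ± 0.14 (adjusted p = 0.0211). Blocking on slide row left 0 of the 3 past the threshold (11 members and 95 of all tested at an unadjusted p below 0.05), with unchanged signs and a median size of 0.76.

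G93A/WT against WT/WT compares mixed with wild-type medium, and shares its WT/WT arrays with the comparison before it. Here 2 of the 141 members passed (1.42%), both higher, miR-3070-2-3p (1.06 ± 0.20, adjusted p = 0.0415) and miR-6391 (at least 1.80-fold, adjusted p = 0.0374, but 0.15 on the log2 scale and not called with the floor at 2 times), beside 3.90% of all tested (3.16% higher, 0.743% lower). As miR-6391 met the detection rule through G93A/WT alone, its p-value is no support for G93A/WT being higher. With quantile normalization 2 were higher and 1 lower, with 0 of the 2 calls shared. The miR-3070-2-3p call was kept under 9 of 21 alternatives, and with 2 of the 8 arrays left out in turn. It was also lost with the authors' values. Among the 14 left out by name 2 passed, both higher. At an unadjusted p below 0.05 there were 31 members and 132 of all tested. The count fell to 0 when WT/WT 1 was left out and to 1 when G93A/WT 2 was, and was 4 when G93A/WT 1 was left out, 6 for G93A/WT 3 and 15 for G93A/G93A 3, which enters this comparison only through the shared spread. In the fit blocked on slide row, 0 of the 2 passed, with unchanged signs, while 2 other members did (23 members and 101 of all tested at an unadjusted p below 0.05). Without array scaling the median of all tested miRNAs moved to 0.79 in this comparison, to -0.68 in G93A/G93A against G93A/WT and to 0.08 in G93A/G93A against WT/WT.

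Most members did not pass in any comparison. Over the 109 detected on all arrays the median log2 difference was 0.07 for G93A/G93A against G93A/WT (61 above 0, 48 below), -0.01 for G93A/G93A against WT/WT (53 and 56) and -0.11 for G93A/WT against WT/WT (44 and 65). Over all 423 miRNAs so detected it was -0.04, -0.07 and -0.03. Groups did not overlap for 23 members higher and 7 lower in G93A/G93A than in G93A/WT, where 18.9% and 16.5% of the 423 were so separated. For G93A/G93A against WT/WT these were 23 and 26 members (19.1% and 25.3% of the 423), and for G93A/WT against WT/WT 14 and 36 (16.1% and 31.7%).

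By number range, the calls of G93A/G93A against G93A/WT were 4 higher and 2 lower of 40 in the miR-3000s, 1 higher of 17 in the miR-4000s and miR-5000s, 1 higher and 1 lower of 18 in the miR-6000s, 1 higher and 1 lower of 42 from miR-7120 upward, and 0 of 23 in the miR-1000s. All 3 calls of G93A/G93A against WT/WT were in the miR-3000s. Those of G93A/WT against WT/WT were 1 in the miR-3000s and 1 in the miR-6000s. Over all 538 tested miRNAs, 10.6%, 8.55% and 3.90% were called in these comparisons, in the same order. With so few calls, the counts by range show nothing particular to a range. The range medians lay between 0.02 and 0.08 for G93A/G93A against G93A/WT, leaving aside the lone miR-2137 at 0.21. For G93A/WT against WT/WT they ran from -0.21 (miR-6000s) to -0.0012 (miR-4000s and miR-5000s), with miR-2137 at -0.47. Whether the ranges differ from each other was not tested.

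**Figure D4:**
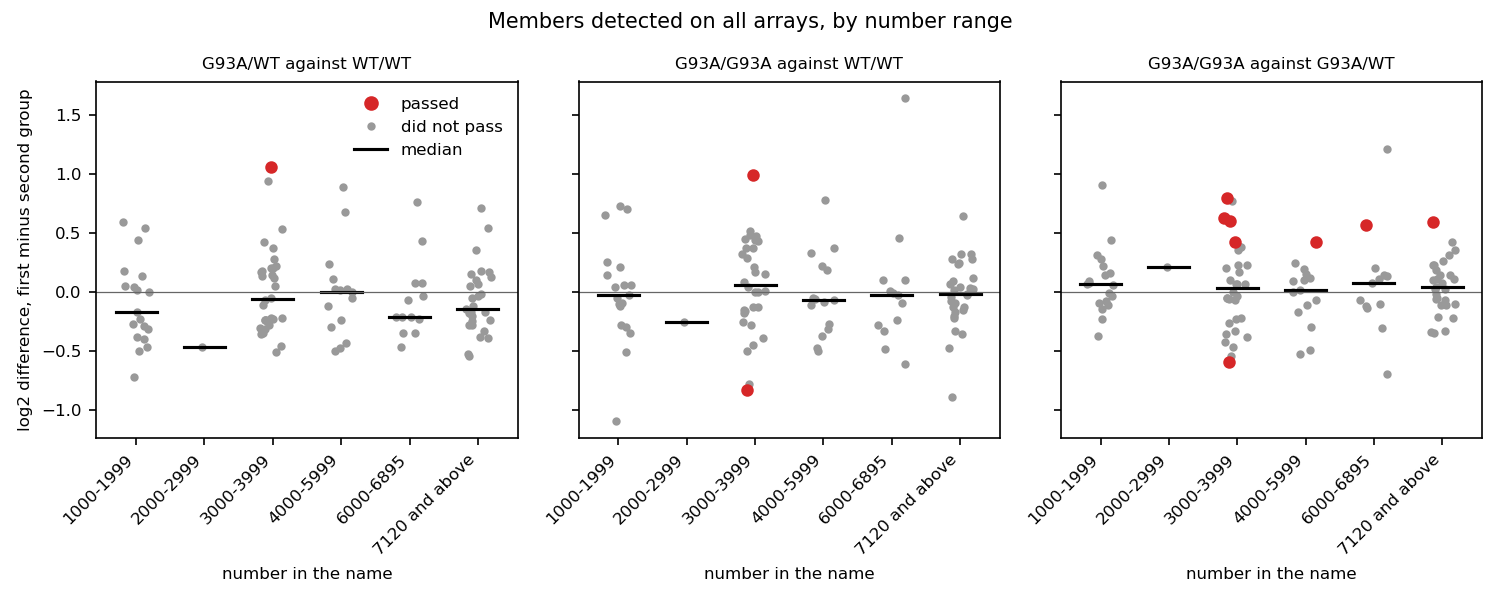
Log2 difference between groups (vertical axis) of the members detected on all arrays, by number range (horizontal axis), in 1 panel per comparison; red points passed the test, grey points did not and bars are medians. Medians lie between -0.21 and 0.08 in every range with more than 1 member. Of the 8 red points between G93A/G93A and G93A/WT, 5 are in the miR-3000s, which hold 32 of the 109 members plotted. So few points show nothing particular to that range.

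Several of the 5 widest differences per comparison among members detected on all arrays did not pass the test. miR-6348 read 3.29 and 1.94 in WT/WT, 3.03, 2.50 and 3.62 in G93A/WT and 4.78, 4.22 and 3.80 in G93A/G93A. Its G93A/G93A arrays were above all others, by 1.65 ± 0.50 over WT/WT (adjusted p = 0.0955) and 1.22 over G93A/WT (adjusted p = 0.123). miR-1249-3p read 3.39 and 3.54, then 2.79, 2.67 and 2.77, then 3.29, 2.11 and 1.70, with a difference of -1.10 ± 0.42 between G93A/G93A and WT/WT (adjusted p = 0.151) and -0.72 between G93A/WT and WT/WT (adjusted p = 0.305). Both groups with mutant cells were below WT/WT, and without array scaling the second difference was 0.049. miR-7238-5p, at 3.81 and 3.32 in WT/WT and 2.47, 2.56 and 3.01 in G93A/G93A, differed by -0.89 ± 0.25 (adjusted p = 0.0780).

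Between G93A/WT and WT/WT, the 5 widest held miR-5099 and miR-6405 beside miR-3070-2-3p, which passed, and miR-3070-3p and miR-1249-3p, which did not. The first of these, miR-5099, read 2.81 and 2.19 in WT/WT and 3.41, 3.38 and 3.37 in G93A/WT (0.89 ± 0.21, adjusted p = 0.0610), and miR-6405 read 2.49 and 2.57 against 3.31, 3.41 and 3.16 (0.76 ± 0.24, adjusted p = 0.111). The groups did not overlap for either. Between G93A/G93A and G93A/WT, miR-6354 read 3.04, 2.21 and 1.81 against 3.07, 3.13 and 2.93, overlapping groups (-0.69 ± 0.33, adjusted p = 0.195).

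Sequence features shared by members were searched on the printed strand, with motifs chosen after the values were seen, so they describe and do not test. A run GUGUGU occurs in 4 of the 116 members with a sequence (3.45%), in 12 of 453 tested miRNAs (2.65%) and in 17 of 1679 mature sequences of the RefSeq table (1.01%). These 4 are shown because they include the widest differences toward G93A/G93A, with the run in capitals.

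miR-1187: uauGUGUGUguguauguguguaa
miR-3082-5p: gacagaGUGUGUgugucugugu
miR-3097-5p: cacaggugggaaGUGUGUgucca
miR-6348: ucagccuuuauaagGUGUGUgu

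Levels of miR-1187 were 6.87 and 6.77 in WT/WT, 6.54, 6.42 and 6.98 in G93A/WT and 8.11, 7.49 and 7.06 in G93A/G93A. The G93A/G93A arrays were above the others, the closest being G93A/G93A 3 and G93A/WT 3 (0.90 ± 0.28 against G93A/WT, adjusted p = 0.0809). miR-3082-5p showed the same order, with 7.68 and 7.74, then 7.28, 7.32 and 7.80, then 8.65, 8.16 and 7.90 (0.77 ± 0.22 against G93A/WT, adjusted p = 0.0752). On all 4, G93A/G93A 1 was the highest array and G93A/WT 3 the highest of G93A/WT. Among the 8 other tested miRNAs with the run, 7 were higher in G93A/G93A than in G93A/WT, with a median difference of 1.03, and 1, miR-206-3p, was not (-0.03). Whether miRNAs with this run share probe signal was not tested.

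**Figure D5:**
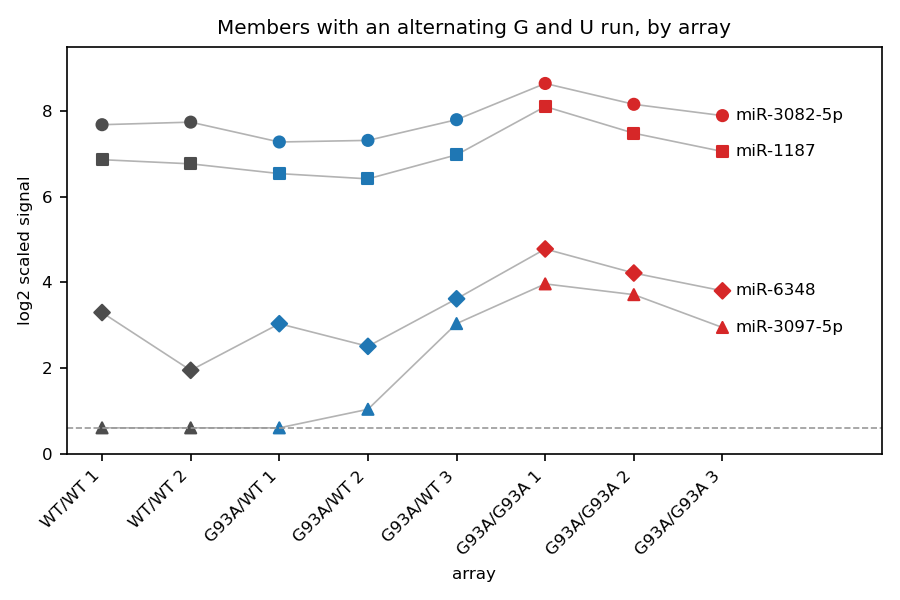
Log2 scaled signal (vertical axis) of the 4 members with the alternating G and U run on each of the 8 arrays (horizontal axis), coloured by group; lines join the values of 1 miRNA and do not stand for an order of samples, and the dashed line is the floor of 0.60. All 4 are highest on G93A/G93A 1, and within G93A/WT all 4 are highest on replicate 3.

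Another group shares letters with the start of the B2 short interspersed repeat of the mouse genome. The motif UGGNGAGAUG, with N for any base, is the stretch that 5 members have in common. Its presence in these 5 thus follows from how the motif was written, and so long a stretch is unlikely to recur elsewhere. It occurs in no other tested miRNA, and in 5 of the 1679 mature sequences, so these counts describe the 5 and test nothing. The 5 members are shown because they include the brightest member, with the motif in capitals.

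miR-3473a: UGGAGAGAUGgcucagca
miR-3473b: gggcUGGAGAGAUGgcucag
miR-3473e: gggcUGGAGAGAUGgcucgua
miR-3473f: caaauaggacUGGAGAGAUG
miR-5128: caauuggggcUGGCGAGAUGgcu

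All 5 were detected throughout and bright, with mean levels from 7.16 (miR-3473a) to 10.77 (miR-3473b). They did not move together. Between G93A/G93A and G93A/WT, miR-3473b differed by -0.35 ± 0.13 (adjusted p = 0.117) and miR-3473f by 0.38 ± 0.11 (adjusted p = 0.0682), and groups did not overlap for either. miR-3473f read 8.79 and 8.95 in WT/WT, averaged 8.92 ± 0.07 in G93A/WT (SD, 3 arrays) and read 9.40, 9.36 and 9.15 in G93A/G93A. miR-5128 differed by 0.20 ± 0.12 (adjusted p = 0.295) and miR-3473e by -0.05 ± 0.16 (adjusted p = 0.836). Their sequences overlap, and whether their probes share signal was not tested.

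The letters AUCCCA, part of which recur in the T arm of many tRNAs, are in 3 members, miR-3963, miR-5100 and miR-3968, and in no other tested miRNA (7 of the 1679). miR-5100 read 8.36 and 7.75 in WT/WT, 7.97, 8.18 and 8.10 in G93A/WT and 7.41, 8.06 and 7.88 in G93A/G93A, with overlapping groups (-0.30 ± 0.22 for G93A/G93A against G93A/WT, adjusted p = 0.378). miR-3968 was detected only on G93A/WT 2 and 3.

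Seeds were mostly distinct: the 116 sequences hold 112, and 3 seeds were shared, by 7 members. miR-3070-2-3p and miR-3070-3p share GGUGCUA, lie in the same imprinted region and differ in few bases.

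miR-3070-2-3p: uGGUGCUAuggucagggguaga
miR-3070-3p: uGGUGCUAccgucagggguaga

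miR-3070-3p read 2.43 and 2.83 in WT/WT, 3.61, 3.61 and 3.50 in G93A/WT and 2.84, 2.90 and 3.59 in G93A/G93A. Both groups with mutant cells were above WT/WT, G93A/G93A only narrowly (2.84 against 2.83). It did not pass (0.94 ± 0.25 for G93A/WT against WT/WT, adjusted p = 0.0706, and 0.48 ± 0.25 for G93A/G93A against WT/WT, adjusted p = 0.258). Whether the probes of miR-3070-2-3p and miR-3070-3p share signal was not tested. From the other arm, miR-3070-5p was detected only on G93A/WT 2 and 3 and G93A/G93A 3. The other members of the region were miR-1188-5p and miR-1906, 5 of 53 tested miRNAs placed between Dlk1 and Dio3, and miR-1188-5p differed by 0.13 ± 0.13 (G93A/WT against WT/WT, adjusted p = 0.521).

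The seed UGGGAAG is common to miR-3547-5p, miR-6368 and miR-6405, which differed in direction. While miR-3547-5p was higher in G93A/G93A than in G93A/WT, miR-6368 read 8.14 and 8.12 in WT/WT, 7.85, 7.72 and 7.78 in G93A/WT and 7.87, 8.01 and 7.80 in G93A/G93A (0.11 ± 0.09, adjusted p = 0.454). miR-6405 stood at -0.31 ± 0.21 (adjusted p = 0.353). The third shared seed, GGCUGGA, is that of miR-3473b and miR-3473e.

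Both arms of a precursor were members for miR-7218 and miR-7221. miR-7221-5p read 5.18 and 4.93 in WT/WT, 5.93, 5.79 and 5.57 in G93A/WT and 5.13, 5.70 and 6.26 in G93A/G93A, above WT/WT in G93A/WT by 0.71 ± 0.31 (adjusted p = 0.212). Its partner miR-7221-3p overlapped across all groups, from 5.97 to 6.29. The arms of miR-7218 were at 5.63 to 6.32 (5p) and 5.02 to 5.62 (3p), and their differences between groups were at most 0.28.

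In base composition the members were rich in G and C, with a median GC of 61.9% (34.8% to 95.2%) against 48.9% for the tested miRNAs numbered below 1000 and 60.9% for those from miR-6896 to miR-7119. Their median G content was 43.5%, against 27.3% and 50.0%. Over the 92 members detected on all arrays with a sequence, GC content correlated with the G93A/G93A against WT/WT difference at r = -0.31 (rho = -0.28), with that between G93A/WT and WT/WT at r = -0.24 (rho = -0.26), and with that between G93A/G93A and G93A/WT at r = -0.13 (rho = -0.05). These correlations run across miRNAs, which share arrays and labelling and are not independent replicates.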

How the data were processed

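Each 1-colour Agilent array measured small RNA (150 ng, from about 600 µl of medium, Cy3-labelled) of 1 sample. Per the file headers, the deposited files list for each miRNA a linear intensity, an error and whether it was detected. The medium held 10% foetal bovine or 2% horse serum at different stages, the labels do not say which was collected, and serum miRNAs of identical sequence would be read by the same probes. A deposited table of the authors' processed intensity (492 mouse miRNAs, 119 members; array medians 23.2 to 26.5; r = 0.970 to 0.999 with the array signals on a log2 scale) was used as an alternative; the sources used here do not say how it was normalized.

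Arrays were scaled to an equal 75th percentile of the 423 mouse miRNAs detected throughout, floored at 1.52 (log2 0.60, the median array's lowest detected signal after scaling) and log2-transformed. Detection was checked to equal a signal above 3 times its error, and undetected signals are listed at 0.1. The 3 comparisons used limma 3.58.1 under R 4.3.3 (lmFit, eBayes, 2-sided, 3 groups and 1 spread over all 8 arrays), with Benjamini-Hochberg adjustment over the 538 mouse miRNAs detected on at least 2 arrays and a threshold of 0.05; every adjusted p is from this test, and ± beside a difference is its standard error. The number of arrays limits the precision. The fit was tested on simulated data. Named were members that passed, the 8 brightest, the brightest of each number range, the 5 widest differences per comparison, members seen in all of 1 group and none of another, shared seeds and arm pairs. Members and lists were chosen with earlier results of these data known. Alternatives covered scaling, floor, detection filter, the authors' values, slide row, replicate number, groups fitted and each array left out.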

Additional observations from a re-analysis of the deposited data

How the results depend on the processing

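Counts of members past the threshold moved with the processing. Here, and for the arrays left out in the comparisons above, they stand without the share of all tested miRNAs under the same setting. They thus show how the counts moved and nothing particular to the members. For G93A/G93A against WT/WT (3 of 141), 8 of 21 alternatives stayed within 1.5 times in number, though scaling on the median, 1 of them, gave 0 higher and 3 lower with 1 shared call. The count was 5 with quantile normalization (all higher, 1 shared), 8 with the authors' values, 7 with the floor at 2 times, 6 with miRNAs detected on at least 1 array tested, 1 with early and late numbers each centred, 1 within the shared slide row and 0 with the slide row as a block; leaving out 1 array gave 0 to 6. For G93A/WT against WT/WT (2), 7 of 21 stayed. The count was 1 with scaling on the median, 34 without scaling, 1 with the authors' values, 8 with the floor at 2 times, 0 when only miRNAs detected on all arrays were tested (the 2 called members then being 1 outside the test and 1 that missed the threshold), 8 with those detected on at least 1 array, 6 within the shared slide row and 13 with only the groups compared; leaving out 1 array gave 0 to 15. For G93A/G93A against G93A/WT (11), 14 of 20 stayed; the count was 24 without scaling, all lower, against 7 higher and 4 lower, 0 with the slide row as a block, and 6 to 23 with 1 array left out. With early and late numbers each centred, the split was 2 higher and 6 lower, and with the authors' values 9 and 1. Without scaling, miR-1249-3p turned to 0.049 (G93A/WT against WT/WT), and against G93A/WT miR-3067-3p turned to -0.18, miR-3547-5p to -0.0026, miR-5110 to -0.18, miR-6418-5p to -0.037 and miR-8108 to -0.015. The cause of these changes was not tested. Most often past the threshold for G93A/G93A against G93A/WT were miR-3059-3p and miR-3095-3p, each under 18 of 20 alternatives; without scaling they stood at 0.022 and 0.19 and did not pass. That setting lowers every well-detected member of this comparison by one common amount, so the sign changes say nothing particular to the miRNAs named.

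Deviations from group means correlated from -0.35 to 0.21 between same-numbered arrays of different groups. Between arrays with different numbers they correlated from -0.21 to 0.32. Such deviations cancel within a group, so these values cannot decide whether replicate numbers pair the samples. With the replicate block, the counts were 0, 0 and 4 in the order above. A 75th percentile over all mouse miRNAs was not run, since on 3 of 8 arrays it is the undetected value. Dim members depend on the floor, and signal near background limits them.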
